A study of Homo sapiens with 4 samples.

Results

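The 46 genes described here form the amino acid arm of the stress response driven by ATF4, a transcription factor of the bZIP family. They comprise 10 enzymes that make or convert amino acids and one-carbon units, 7 amino acid transporters, 12 genes for tRNA charging and tRNA export (11 aminoacyl-tRNA synthetases and XPOT), and 17 stress factors, among them ATF4 itself, other transcription factors, feedback regulators and secreted or surface proteins. The members were taken by symbol, and the list was chosen from measured values, since genes of this pathway had been seen on these arrays to differ between the cultures of naive cells. That difference is therefore given as a description with no test. The 46 genes stand among 13830 genes that had a symbol and a tested probe, and their 70 probes stand among 28221. All 70 probes passed the filter on dim signals.

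Gene expression was measured in NB4, an established human acute promyelocytic leukemia (APL) cell line, in 2 groups of 2 independent flasks each. The naive flasks carried NB4 cells without acquired resistance, and the other flasks an in-house line resistant to arsenic trioxide (ATO), which the labels call NB4-VM-AsR1 and the methods NB4-EV-AsR1. The names are taken for the same clone, which neither source states, and 1 clone is a narrow model of resistance. Both lines were grown in RPMI with FBS, and the resistant cells were kept without ATO for a week before RNA was taken, so that no group was under the drug. RNA of each flask was labeled with Cy3 and hybridized to 1 array of a 4-array slide, with the naive flasks in the first positions and the resistant flasks in the last, and position on the slide cannot be told apart from the line.

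ATF4 is held at a low level by its own messenger RNA, whose upstream reading frames divert ribosomes. When kinases phosphorylate the initiation factor eIF2, as GCN2 does when uncharged tRNA builds up and PERK does under stress in the endoplasmic reticulum (ER), general translation slows and ATF4 protein is made. ATF4 then switches on genes for amino acid import, synthesis and tRNA charging, together with factors that end or redirect the response. HRI, another of these kinases, is known to respond to arsenite and to lack of heme. The arrays measure messenger RNA, and neither ATF4 protein nor eIF2 phosphorylation.

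ATF4 binds, as a dimer with C/EBP proteins, a composite element called the CARE. Its core was searched here as TGATGNAA on both strands of RefSeq promoters of GRCh38.p14, from 250 bases before to 50 after each start, with N for any base. Of 27305 genes with such a promoter, 4.46% held it. A promoter was found for 38 members, and 15 of them held the core, 6 of 10 genes for tRNA charging and export, 4 of 6 transporters, 4 of 15 stress factors and 1 of 7 enzymes with a promoter in the table. The members are known targets of ATF4, so this share was not read as a result. The cyclic AMP response element (CRE), TGACGTCA, was held by 2.25% of genes and by 1 member, PPP1R15A, whose window has no CARE core to overlap with it. The windows below were chosen to show the element in each group of members, in genes that differed widely between the flasks and in genes that did not, and capitals mark the match in the orientation of the gene.
ASNS: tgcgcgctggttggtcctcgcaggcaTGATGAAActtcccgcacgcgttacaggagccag
SLC1A5: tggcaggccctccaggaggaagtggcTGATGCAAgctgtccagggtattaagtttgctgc
AARS: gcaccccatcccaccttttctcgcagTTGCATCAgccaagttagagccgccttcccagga
CARS: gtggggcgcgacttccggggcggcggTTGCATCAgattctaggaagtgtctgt
CEBPG: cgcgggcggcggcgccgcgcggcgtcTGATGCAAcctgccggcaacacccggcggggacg
JDP2: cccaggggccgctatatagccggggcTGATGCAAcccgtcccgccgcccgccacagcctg
CHAC1: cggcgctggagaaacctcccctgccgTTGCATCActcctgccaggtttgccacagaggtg
ATF3: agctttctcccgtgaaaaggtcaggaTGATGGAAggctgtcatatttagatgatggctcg
PPP1R15A: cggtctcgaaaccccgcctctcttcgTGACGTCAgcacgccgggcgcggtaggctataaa

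The ASNS window is chr7:97872443-97872502 on the minus strand, and its match begins at -68 from the start. The SLC1A5 window, chr19:46784878-46784937 on the minus strand, has its match at -97, and the CEBPG window, chr19:33374045-33374104 on the plus strand, at -42. The core reads on the opposite strand in AARS (chr16:70289660-70289719, minus strand, at -187), in CARS (chr11:3057399-3057451, minus strand, at -2) and in CHAC1 (chr15:40953236-40953295, plus strand, at -209). The JDP2 window is chr14:75427980-75428039 on the plus strand with its match at -16, and the ATF3 window chr1:212565190-212565249 on the plus strand with its match at -191. The CRE of PPP1R15A lies at -58 in chr19:48872337-48872396 on the plus strand. A match shows only that these letters are in the window.

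Values are log2 of the processed signal minus the 75th percentile of the array, so that 0 is a bright probe and 1 unit is a doubling. They compare flasks for 1 probe and not levels between genes. Where a gene has several probes, the brightest one on average stands for it. Between 27922 and 28244 of 41000 probes per array were well above background, 457 to 565 were saturated, and every member reached that level in all flasks except NUPR1, which did not in naive flask 1. The brightest probes of ATF4 and TRIB3 were saturated on all 4 arrays, that of ASNS in naive flask 2 and resistant flask 1, and that of SHMT2 in naive flask 2. Of the promyelocyte markers, 8 of 9 were well above background on all arrays, MPO among them, and of 5 stroma markers COL1A1, COL1A2, COL3A1 and LUM were well above background on none. Of the erythroid markers, HBA1 and ALAS2 were above it on all arrays and HBB on none. The T cell markers CD2, CD3E and CD8A and the B cell markers CD79A and CD79B were above it on all arrays. CD3D (above it in the naive flasks alone), CD8A and CD79B were called lower in the resistant line, as was the promyelocyte marker ANPEP. AZU1 and ELANE were called higher, and ELANE was not well above background in naive flask 2. Between the naive flasks, 5 of the 9 promyelocyte markers were higher in naive flask 2 and 4 lower. The widest of these differences was that of PRTN3, at 3.16 and 0.80, with 4.43 and 4.32 in the resistant flasks. The part of such genes in the values below was not tested.

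The main pattern in these genes lay within the naive line. This difference was known when the members were listed, so the counts that follow are description only. Naive flask 2 was above naive flask 1 in 42 of the 46 members, against 52.4% of all genes, and at least 2-fold above in 14 members, against 6.45% of all genes. In 0 members was it at least 2-fold below, against 3.85% of all genes. The median difference over the members was 0.63 on the log2 scale, with a range from -0.20 to 4.03, and the median over all genes was 0.03. The widest median was that of the stress factors, 1.36, followed by 0.76 for the enzymes, 0.48 for the genes of tRNA charging and 0.39 for the transporters. The resistant flasks were close to each other, with a median member difference of 0.07, a range from -0.35 to 0.55 and 0 members at least 2-fold apart, against 1.70% of all genes. This closeness was not particular to the members. Over the tested probes of the whole array, the SD of the difference was 0.37 between the resistant flasks and 0.71 between the naive flasks. Naive flask 2 was the highest of the 4 flasks in 30 members, against 29.9% of all genes, and naive flask 1 the lowest in 30 members, against 30.2%. These counts include members with saturated probes, among them ATF4 and TRIB3, whose flasks cannot be compared by those probes. Of the 42 members whose probe was not saturated on any array, 38 were higher in naive flask 2, 13 of them at least 2-fold. Among these 42, naive flask 2 was the highest in 28 and naive flask 1 the lowest in 26.

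The scale bears on this difference. Of 10 Agilent spike-in controls, RNAs meant to be added in fixed amounts at labeling, 6 could be measured on every array, neither dim nor saturated, and after the percentile shift their median in naive flask 1 was 1.30 log2 units below that in naive flask 2 (-1.30), against -0.23 and -0.25 in the resistant flasks. On a scale set to the spike-ins, an alternative added after seeing the data, the difference between the naive flasks had a median of -1.28 over all genes and -0.69 over the members. The direction of the member median was thus reversed on that scale, and 11 of 46 members were above 0. The members' median was 0.60 above that of all genes, with 42 of 46 members above it, and since the spike-in scale moves all genes of an array by 1 constant these values are the same on it by construction. A shift to the array median put the median of all genes at -0.13 and left 39 members above 0. The part of RNA amount or labeling in the naive difference was not tested.

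**Figure D1:**
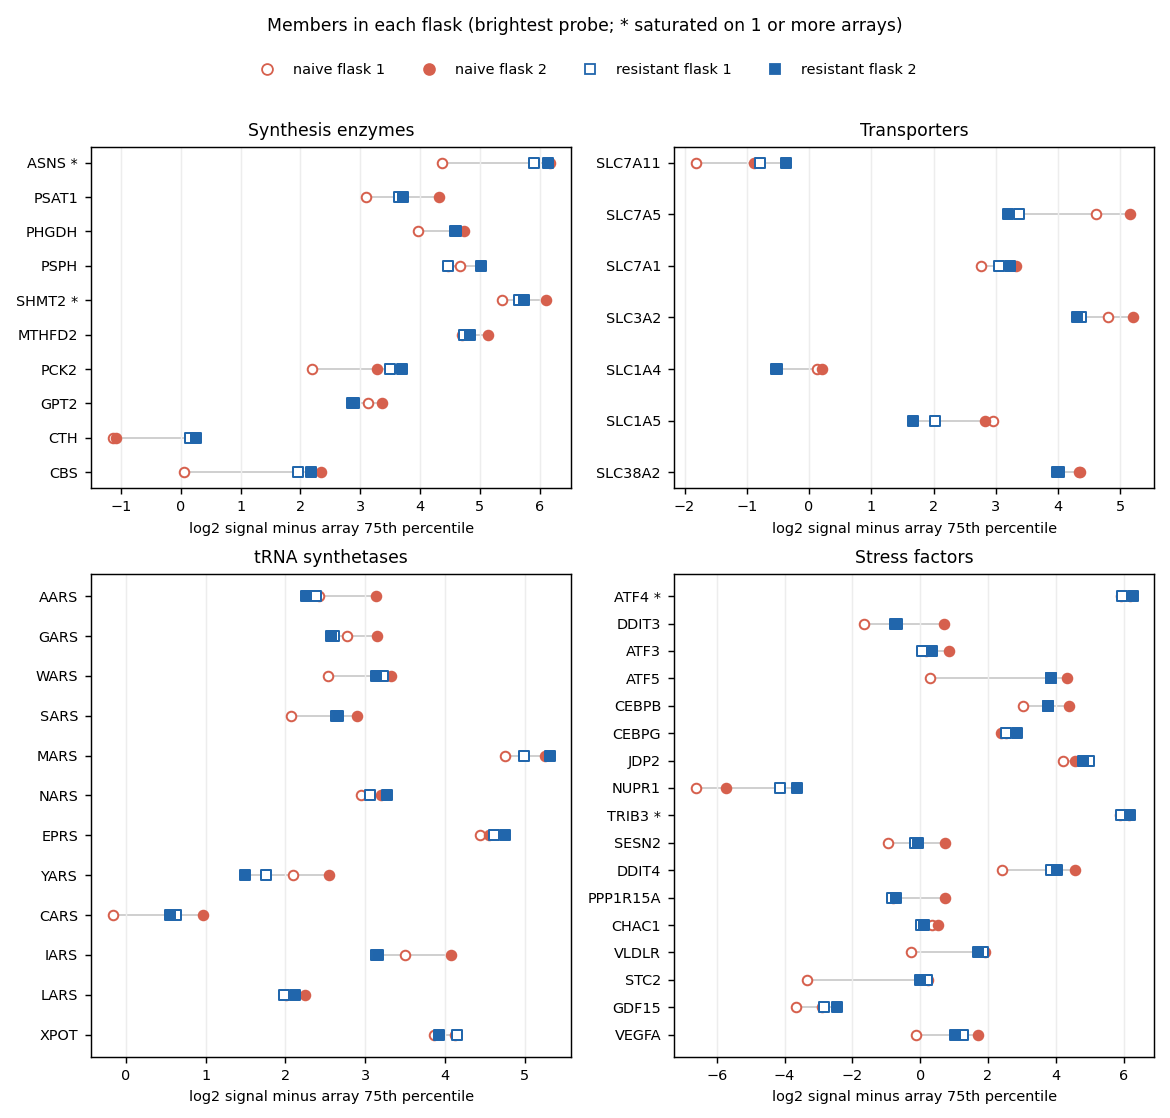
Log2 signal minus the array 75th percentile (horizontal axes) of the brightest probe of each of the 46 members in the 4 flasks, in 4 panels by group; circles are naive flasks, squares resistant flasks, filled symbols the second flask of a line, and asterisks mark probes saturated on 1 or more arrays. Naive flask 1 lies far to the left of the other flasks for ATF5, STC2, CBS, VLDLR and DDIT4, and both resistant flasks lie to the left of both naive flasks for SLC7A5, SLC1A5, SLC3A2 and SLC1A4.

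Among the stress factors, ATF4 itself could not be compared by its brightest probe. A second ATF4 probe, not saturated, read 3.95 and 4.68 in the naive flasks and 4.47 and 4.49 in the resistant flasks. Naive flask 1 was thus the lowest and naive flask 2 the highest, with both resistant flasks between them. ATF5, a bZIP factor whose translation is controlled in the way of ATF4's, had the widest naive difference of any member by the brightest probe. Its values were 0.29 in naive flask 1, 4.32 in naive flask 2, 3.85 in resistant flask 1 and 3.86 in resistant flask 2, a 16.3-fold difference between the naive flasks. Naive flask 1 stood alone below the other flasks.

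STC2, the secreted glycoprotein stanniocalcin 2, behaved likewise, with -3.34 and 0.22 in the naive flasks and 0.20 and -0.01 in the resistant flasks. Its second probe read -5.57 and -0.63 against -1.18 and -1.35. VLDLR, a lipoprotein receptor, gave -0.27 and 1.91 in the naive flasks and 1.86 and 1.71 in the resistant flasks. In these genes the mean of the resistant flasks lay close to naive flask 2, 96.6% of the way from naive flask 1 to naive flask 2 for STC2, 94.1% for VLDLR and 88.4% for ATF5. DDIT4, an inhibitor of mTORC1 signaling, had 2.41 and 4.57 in the naive flasks and 3.85 and 4.04 in the resistant flasks, 70.8% of the way. The 4 probes for VEGFA, the vascular growth factor, all read higher in naive flask 2, the brightest with -0.14 and 1.70 against 1.25 and 1.02 in the resistant flasks.

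In a further set of stress factors the resistant flasks lay at or below the middle between the naive flasks, or barely above it, and well below naive flask 2. DDIT3, the pro-apoptotic factor CHOP, read -1.67 and 0.70 in the naive flasks and -0.67 and -0.73 in the resistant flasks. PPP1R15A, or GADD34, brings the phosphatase that ends eIF2 phosphorylation, and it read -0.80 and 0.73 in the naive flasks and -0.82 and -0.70 in the resistant flasks. The second probe of TRIB3, a pseudokinase that restrains ATF4, read 0.32 and 2.39 in the naive flasks and 0.64 and 0.24 in the resistant flasks. For PPP1R15A and this TRIB3 probe, naive flask 2 stood alone above 3 flasks that were close together, and the resistant mean was 2.61% and 5.85% of the way to it. DDIT3 was 40.7% of the way. SESN2, a leucine sensor upstream of mTORC1, and CEBPB, a partner of ATF4, were near the middle, at 50.5% and 53.1%. SESN2 read -0.96 and 0.72 against -0.16 and -0.06, and CEBPB 3.04 and 4.40 against 3.77 and 3.76. In all of these genes the values of the lines overlapped.

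The other stress factors differed less between the naive flasks. GDF15, a secreted cytokine, read -3.65 and -2.89 in the naive flasks and -2.83 and -2.44 in the resistant flasks. JDP2, a bZIP repressor, read 4.21 and 4.55 against 4.99 and 4.79. In both genes the resistant flasks were above both naive flasks. ATF3, a bZIP factor induced by many stresses, read 0.17 and 0.85 against 0.06 and 0.33. CHAC1, which degrades glutathione and is among the best known ATF4 targets, read 0.34 and 0.51 against 0.03 and 0.11. CEBPG, a dimer partner of ATF4, was the only stress factor lower in naive flask 2, at 2.54 and 2.38 against 2.53 and 2.85. JDP2, ATF3, CHAC1 and CEBPG carry the CARE core printed above, and none of them differed by 2-fold between the naive flasks. ASNS and CARS, of other groups, carry it too and did differ by 2-fold.

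**Figure D2:**
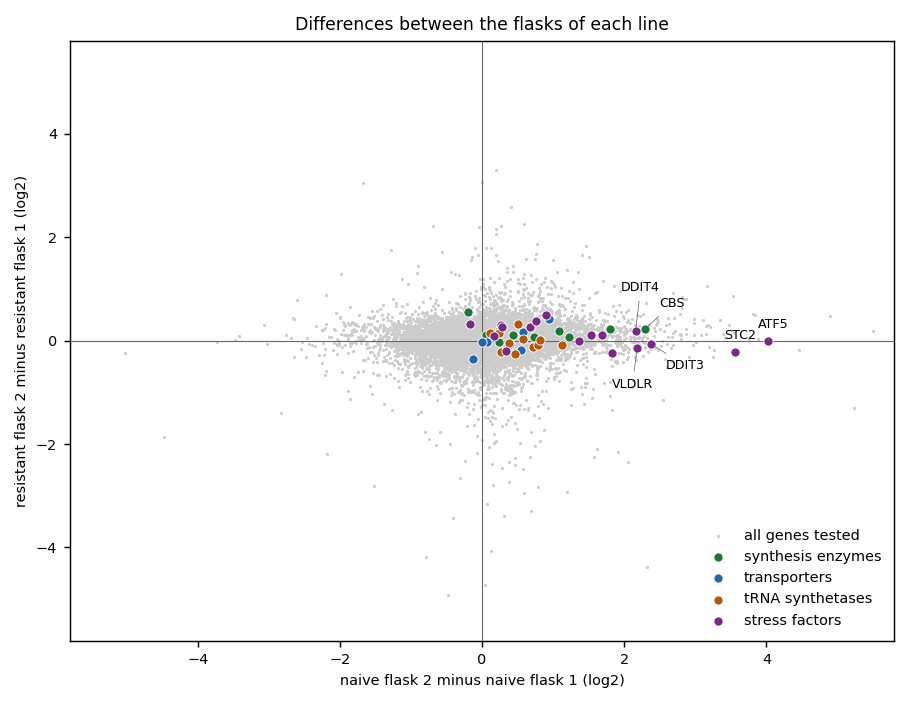
Log2 difference between the naive flasks (horizontal axis) against the log2 difference between the resistant flasks (vertical axis) for all genes tested (gray) and the members, colored by group; both axes span the same range. The members spread to the right, to 4.03 for ATF5, and stay between -0.35 and 0.55 on the vertical axis.

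Of the 10 enzymes, 4 were at least 2-fold higher in naive flask 2. CBS, which condenses homocysteine with serine, read 0.06 and 2.35 in the naive flasks and 1.96 and 2.18 in the resistant flasks, 87.8% of the way from naive flask 1 to naive flask 2. ASNS, the asparagine synthetase, read 4.36 and 6.16 against 5.90 and 6.13, where naive flask 2 and resistant flask 1 were saturated. PSAT1, of the serine pathway, read 3.10 and 4.31 against 3.65 and 3.72, and so its resistant flasks lay midway. PCK2, the mitochondrial phosphoenolpyruvate carboxykinase, read 2.19 and 3.28 against 3.50 and 3.69, with both resistant flasks above both naive flasks.

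PHGDH, which opens the serine pathway, read 3.96 and 4.74 in the naive flasks and 4.61 and 4.58 in the resistant flasks. SHMT2, which passes the serine carbon into mitochondrial folate, read 5.37 and 6.10 against 5.66 and 5.73, and MTHFD2, the next mitochondrial folate enzyme, 4.70 and 5.13 against 4.73 and 4.84. All of these were highest in naive flask 2. PSPH, the last enzyme of serine synthesis, read 4.67 and 4.47 against 4.47 and 5.02, with its highest value in resistant flask 2. GPT2, the mitochondrial alanine transaminase, read 3.12 and 3.36 against 2.89 and 2.85, and its second probe had the opposite sign between the naive flasks, 1.74 and 1.38.

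The genes of tRNA charging differed less, with all 12 higher in naive flask 2 and differences from 0.11 to 1.13. CARS, the cysteinyl-tRNA synthetase, had the widest difference and was the only one past 2-fold, at -0.16 and 0.96 in the naive flasks and 0.63 and 0.55 in the resistant flasks. WARS read 2.53 and 3.32 against 3.22 and 3.14, and SARS 2.08 and 2.90 against 2.64 and 2.66, so that naive flask 1 was alone at the low end for these 3 genes. In 4 of the 12, AARS, GARS, YARS and IARS, the enzymes for alanine, glycine, tyrosine and isoleucine, both resistant flasks were below both naive flasks, as in 29.2% of all genes. AARS read 2.42 and 3.14 against 2.39 and 2.26, GARS 2.77 and 3.15 against 2.61 and 2.57. YARS read 2.09 and 2.55 against 1.75 and 1.49, and IARS 3.50 and 4.07 against 3.14 and 3.17.

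In MARS, NARS, EPRS, LARS and XPOT the 4 flasks lay close together by the brightest probe. EPRS, for glutamate and proline, read 4.44 and 4.55 in the naive flasks and 4.62 and 4.76 in the resistant flasks, the only gene of the group with both resistant flasks on top. MARS read 4.75 and 5.26 against 4.99 and 5.31, NARS 2.95 and 3.20 against 3.06 and 3.28, and LARS 2.01 and 2.25 against 1.98 and 2.12. Second probes differed in sign between the lines, at 1.80 and 2.17 against 1.69 and 1.22 for MARS and 0.68 and 1.47 against 1.25 and 1.75 for LARS. XPOT, the nuclear export receptor of tRNA, read 3.86 and 4.13 against 4.15 and 3.93. The file places its probes on chromosomes 7 and 20, while RefSeq has the gene on chromosome 12, and the XPOT values are uncertain for that reason. For the other 58 probes with a chromosome from both sources, the chromosomes were the same.

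In 5 of the 7 transporters, SLC7A5, SLC3A2, SLC1A4, SLC1A5 and SLC38A2, both resistant flasks were below both naive flasks, which held for 29.2% of all genes. Whether the transporters differ in this from the other groups was not tested. SLC7A5, the light chain of the LAT1 exchanger for large neutral amino acids, read 4.61 and 5.15 in the naive flasks and 3.38 and 3.19 in the resistant flasks. SLC3A2, the heavy chain that carries SLC7A5 and SLC7A11 to the membrane, read 4.81 and 5.20 against 4.36 and 4.30. SLC1A5, a glutamine transporter, read 2.95 and 2.82 against 2.03 and 1.67. In these 3 genes the gap between the lines was wider than the gap between flasks of a line, and the naive flasks did not show the wide split seen in ATF5 or CBS.

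SLC1A4, which carries alanine and serine, read 0.13 and 0.21 in the naive flasks and -0.51 and -0.54 in the resistant flasks, and SLC38A2, a sodium-coupled neutral amino acid transporter, 4.35 and 4.34 against 4.02 and 3.99. SLC7A11, the cystine importer, went the other way, with -1.82 and -0.89 in the naive flasks and -0.79 and -0.36 in the resistant flasks. Its resistant flasks were above both naive flasks by the brightest probe, and the third of its 3 probes overlapped, with -2.96 and -2.01 against -1.77 and -2.36. SLC7A1, the cationic amino acid transporter, read 2.76 and 3.33 against 3.06 and 3.23.

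Between the lines, 3 of the 46 members were called changed, 2 higher and 1 lower in the resistant line, against 6.29% of all genes, where a call needs a Benjamini-Hochberg adjusted p below 0.05 from limma over all probes and at least 2-fold. CTH, the cystathionine gamma-lyase that makes cysteine, rose from -1.11 ± 0.04 to 0.21 ± 0.07 (mean ± SD, n = 2), a 2.49-fold change, with a log2 change of 1.32 (SE 0.22, limma adjusted p = 0.034). Its 4 flasks read -1.14 and -1.08 against 0.16 and 0.26, the tightest agreement within lines among the called members. NUPR1, a small stress-induced chromatin protein, rose from -6.17 ± 0.64 to -3.88 ± 0.36, with flasks at -6.62 and -5.72 against -4.13 and -3.63 and a log2 change of 2.29 (SE 0.38, limma adjusted p = 0.036). It was the dimmest member and not well above background in naive flask 1, so that it passed the filter through the resistant line, and the log2 change was 0.74, not called, under either normexp background correction. SLC7A5 fell from 4.88 ± 0.39 to 3.29 ± 0.13, 3.02-fold, with a log2 change of -1.59 (SE 0.28, limma adjusted p = 0.041), and its second probe gave -1.61 with an adjusted p of 0.088. The SLC7A5 call was lost under quantile normalization (limma adjusted p = 0.070) and scale normalization (limma adjusted p = 0.052). SLC1A5 had a log2 change of -1.04 (SE 0.24) that missed the threshold (limma adjusted p = 0.093).

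The CTH probe lies at chr1:70905041-70905100, the NUPR1 probe at chr16:28548821-28548880 and the SLC7A5 probe at chr16:87863907-87863966 in hg19, the build of the scanner files. The calls depended on single flasks, and so did the number of probes called over the whole array. They did not hold when a resistant flask was left out, where fewer probes of the whole array were called as well. Against naive flask 1 alone, the log2 changes were 1.35 for CTH, 2.74 for NUPR1 and -1.32 for SLC7A5. Against naive flask 2 alone, they were 1.29, 1.84 and -1.87. With 2 flasks a line an exact two-sided permutation test cannot go below p = 0.333, and the calls draw on the variance limma shares across probes.

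**Figure D3:**
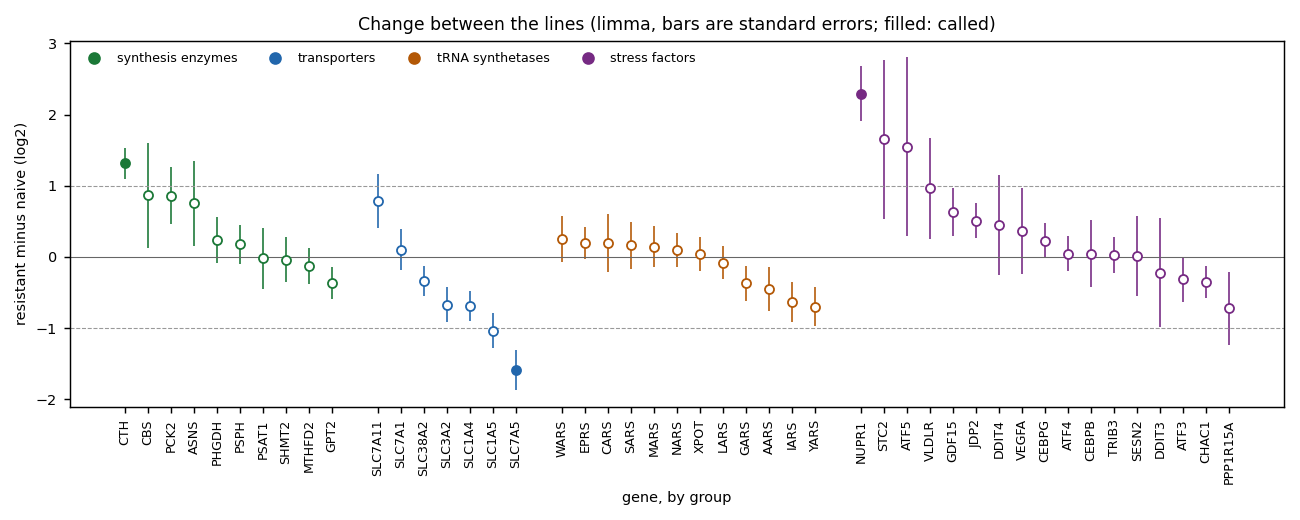
Log2 change of each member, resistant minus naive (vertical axis), fitted by limma from 2 flasks a line, with bars of 1 standard error, in 4 groups along the horizontal axis; filled points are called and dashed lines mark 2-fold. CTH and NUPR1 lie above and SLC7A5 below the dashed lines, and the longest bars are those of ATF5 and STC2, whose naive flasks were far apart.

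ATF5 and STC2 show what the split of the naive flasks does to this contrast. Their log2 changes were 1.55 (SE 1.26, limma adjusted p = 0.56) and 1.65 (SE 1.12, limma adjusted p = 0.48), wider than that of CTH but with much larger standard errors. Without naive flask 2 they were 3.56 and 3.43, and without naive flask 1 they turned to -0.47 and -0.12. The lines did not overlap in 18 members. The resistant flasks were both higher in 7, PCK2, CTH, SLC7A11, EPRS, JDP2, NUPR1 and GDF15, against 28.5% of all genes. They were both lower in 11, GPT2, the 5 transporters and 4 synthetases named above and CHAC1, against 29.2% of all genes.

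The mean of the resistant flasks was set against each naive flask apart. The 2 comparisons share the resistant flasks. Against naive flask 1, 12 members were at least 2-fold higher, against 8.79% of all genes, and SLC7A5 and SLC1A5 at least 2-fold lower, against 7.52%. Against naive flask 2, NUPR1 and CTH were at least 2-fold higher, against 6.87% of all genes, and SLC7A5, DDIT3 and PPP1R15A at least 2-fold lower, against 7.95%. The median member difference was 0.36 against naive flask 1 and -0.31 against naive flask 2, with all genes at 0.00 and -0.01. For the stress factors these medians were 0.85 and -0.44, for the enzymes 0.61 and -0.21 and for the genes of tRNA charging 0.20 and -0.22, so that the direction depended on the naive flask chosen. For the transporters both medians were below 0, at -0.48 and -0.73. On the spike-in scale the medians were -0.62 and 0.023 over all members, -0.13 and -0.11 for the stress factors and -1.46 and -0.40 for the transporters, and the order of the signs over all members was thus reversed there.

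**Figure D4:**
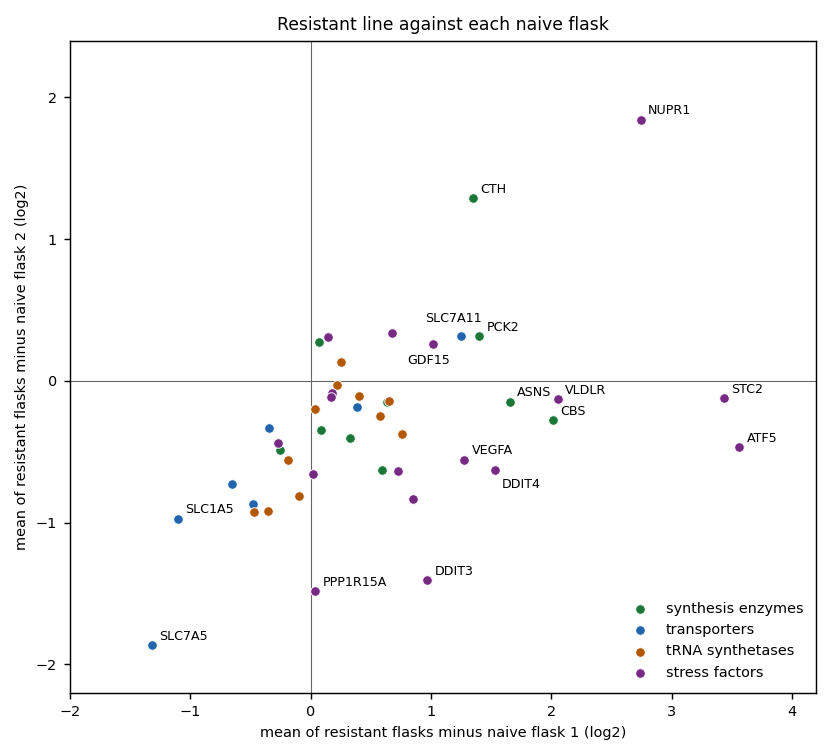
Mean of the 2 resistant flasks minus naive flask 1 (horizontal axis) and minus naive flask 2 (vertical axis), in log2 units, 1 point per member, colored by group; members at least 2-fold apart in either comparison are named. NUPR1 and CTH lie at the upper right and SLC7A5 at the lower left, while ATF5 and STC2 lie far to the right near 0 on the vertical axis and PPP1R15A lies near 0 on the horizontal axis.

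The naive difference was also listed for members with and without the CARE core in the promoter window. Its median was 0.39 for the 15 members with the core and 0.82 for the 23 without it in the window, and 2 of the 15, ASNS and CARS, were at least 2-fold apart, against 11 of the 23. The core was held by 4 of 15 stress factors and 1 of 7 enzymes, groups with median differences of 1.36 and 0.76. It was held by 6 of 10 genes of tRNA charging and 4 of 6 transporters, groups with medians of 0.48 and 0.39. The core thus cannot be told apart from the group, and its part in the naive difference was not tested. Elements outside these windows were not searched.

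Further genes of the pathway, listed apart from the members, gave a mixed picture between the naive flasks. The median difference was 0.33 over 18 tested of 22 further ATF4 targets, 3 of them at least 2-fold higher in naive flask 2. Those 3 were ALDH1L2, a mitochondrial folate dehydrogenase (-2.21 and 0.75), CCPG1, a receptor for degradation of ER (0.08 and 1.47), and MTHFD1L, the mitochondrial formate-producing enzyme (1.03 and 2.16). In 8 of the 18 naive flask 2 was the lower, most widely in ATG5 (2.28 and 1.30), HMOX1 (-0.75 and -1.50) and MAP1LC3B (2.02 and 1.42). ALDH1L2 was also called between the lines, and it had entered the test through the naive line where it is bright. Both resistant flasks were not well above background, at least 53.5-fold below the naive mean and at least 19.1-fold below naive flask 1, the dimmer naive flask (limma adjusted p = 0.012). KLHL24, a ubiquitin ligase adaptor, was called higher, at -1.76 and -1.47 against 0.07 and 0.04 (limma adjusted p = 0.020). The other 16 were not called, and of all genes 6.29% were called.

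Of the remaining 9 cytosolic synthetases, 4 were higher in naive flask 2, with a median of -0.07 and 0 at least 2-fold apart, and the 17 mitochondrial synthetases had a median of -0.19. The median was -0.29 over 19 genes of the eIF2 kinases, eIF2 and eIF2B subunits and phosphatase subunits. Of these 19, 0 were called between the lines by limma, against 6.29% of all genes, with 3 at an unadjusted p below 0.05. Of 14 genes for ER chaperones and sensors of the unfolded protein response, 10 were lower in naive flask 2, with a median of -0.28. HSPA5, the chaperone BiP, read 3.94 and 2.06 in the naive flasks and 2.75 and 2.52 in the resistant flasks, and CRELD2 read 3.40 and 1.92 against 3.85 and 3.80. On the percentile scale the medians of the ER chaperones and of the members thus had opposite signs between the naive flasks. On the spike-in scale, which moves all genes down by 1 constant, the member median was -0.69 and the signs are not opposite.

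Among 10 tested of 12 further amino acid transporters, 3 were called, all higher in the resistant line, against 6.29% of all genes called in either direction. SLC7A7, the light chain of a cationic amino acid exchanger, read -4.29 and -4.37 in the naive flasks and -0.59 and -0.36 in the resistant flasks (log2 change 3.85, limma adjusted p = 0.0014). SLC43A2, a transporter of large neutral amino acids, read -2.41 and -2.89 against -0.12 and 0.12 (log2 change 2.65, limma adjusted p = 0.0070). SLC7A8, another light chain for neutral amino acids, was not well above background in the naive flasks, entered the test through the resistant line where it is brighter, and was at least 2.15-fold higher there (limma adjusted p = 0.0070). SLC16A10, an aromatic amino acid transporter, was lower in naive flask 2 than in naive flask 1, at -2.95 and -4.69, and read -5.81 and -5.74 in the resistant flasks, where it was not called.

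**Figure D5:**
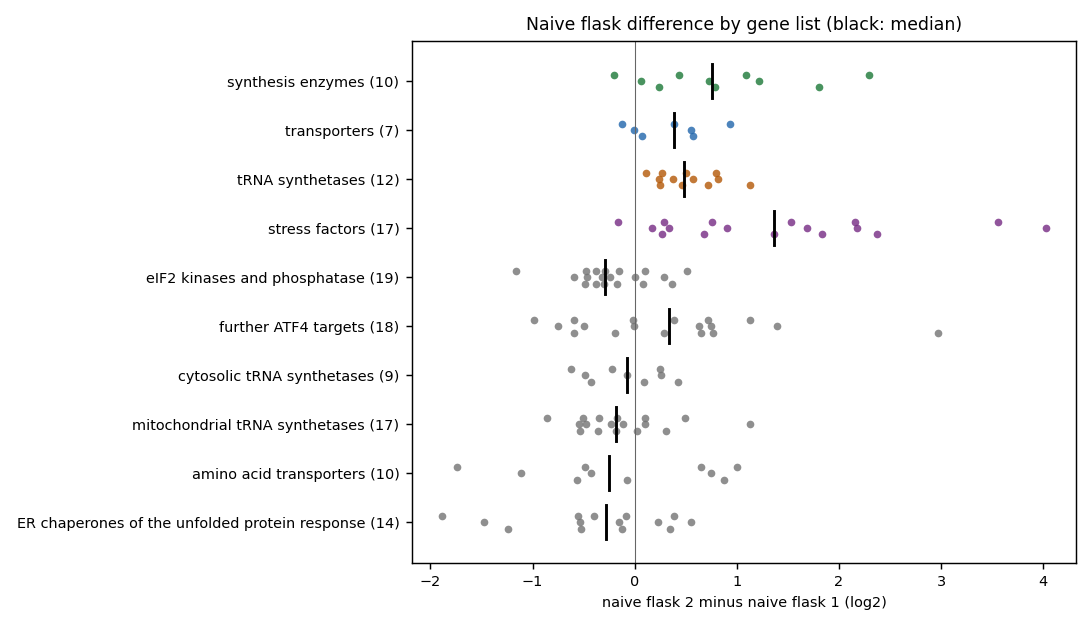
Log2 difference of naive flask 2 minus naive flask 1 (horizontal axis) for the genes of the 4 member groups (colored) and of 6 further lists (gray), 1 point per gene, with the number of genes in brackets and a black line at the median. On this percentile scale the member medians lie between 0.39 and 1.36. The lists of eIF2 factors, other synthetases, other transporters and ER chaperones have medians below 0.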

How the data were processed

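Gene expression was measured on 4 one-colour Agilent arrays, 2 flasks of naive and 2 of ATO resistant NB4 cells. The authors deposited Feature Extraction output, whose processed signal, mean signal and local background are intensities, and log2 values after a 75th percentile shift in GeneSpring. Here the processed intensities were put on the log2 scale in R 4.3.3, without control spots or outlier spots, averaged per probe and centred on the 75th percentile of each array. The lines were compared with limma 3.58.1 over probes that both arrays of either line had well above background. Signal over background and the number of arrays limit the precision, since arrays have no read depth. Genes named are all members and, from the other pathway lists, called genes and some of those with wide naive differences. Other genes of those lists past 2-fold between the naive flasks are not named. The members and lists were chosen with earlier results of these data known. Current symbols came from RefSeq accessions of GRCh38.p14 for 44 of 46 members. Alternatives covered background correction, normalization, filters, saturated probes, spike-ins, the test, the replicate block and each flask left out. The limma step was tested on simulated data.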

Additional observations from a re-analysis of the deposited data

How the results depend on the processing

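Of 872 values of the members' log2 change between the lines under 19 alternatives, 764 kept direction and side of the threshold, 23 lost the call, 13 gained it and 72 changed sign, 0 of these in CTH, NUPR1 or SLC7A5. The count of 3 members called was 0 under normexp background correction, with no filter on dim probes, under the methods' t-test and on the spike-in scale (3, 6, 6 and 2 members at an unadjusted p below 0.05), and ranged from 0 to 14 when 1 flask was left out. With the replicate block it was 1, NUPR1, with adjusted p of 0.062 for CTH and 0.061 for SLC7A5. The labels do not say whether flasks with the same replicate number belong together. Across probes the naive and resistant differences had an r of 0.12, which cannot settle that. The log2 changes of ATF5 and STC2 ranged from -0.47 to 3.56 and from -0.12 to 3.43 when 1 flask was left out.

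On the spike-in scale, added after seeing the data as was the restriction to probes not saturated, the median naive difference was -0.69 over all members, -0.56 for enzymes, -0.92 for transporters, -0.83 for tRNA charging and 0.046 for stress factors. The resistant mean against naive flask 1 had medians of -0.62, -0.37, -1.46, -0.78 and -0.13 in that order, and against naive flask 2 of 0.023, 0.12, -0.40, 0.11 and -0.11. Normexp moved the median difference between the resistant flasks to 0.38 for enzymes, 0.26 for transporters and 0.29 for tRNA charging, and the stress factors against naive flask 1 to 0.52. The cause was not tested. A fit with the slide as block was not run, as there was 1 slide. NUPR1, not well above background in naive flask 1, had a log2 change of 0.74 under normexp with bright local backgrounds reset, and 2 of 46 members could not be compared by saturated probes.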
